A study of Mus musculus with 12 samples.

Results

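The genes described here build the machinery that docks, primes and fuses secretory granules: the SNARE proteins (syntaxins, the SNAP25 family and the VAMPs), the syntaxin-binding proteins, complexins, synaptotagmins, synaptotagmin-like proteins, Unc13 and Rims proteins and the Rab3 and Rab27 GTPases. They were chosen by symbol among protein-coding genes, and 73 of the 22141 genes in the table belong to the set. GENCODE M21 annotates 75 such genes; Syt10 and Vamp9 were not analysed here. The data are RNA sequencing counts from pancreatic islets of wild-type male mice aged 10 to 12 weeks, cultured in lots of about 120. There were 3 libraries in each of 4 groups: palmitate, palmitate + C3a, vehicle + C3a and vehicle. Palmitate is a saturated fatty acid used to stress islets in culture, and C3a is a fragment of complement component C3 that acts on a receptor of its own. Every group was wild type and cultured, and the labels give neither the dose and duration of either agent nor the animals or cultures behind each library. The column headers give the second libraries of all 4 groups a shared date and the third libraries another, without saying what was done on it. The p-values therefore measure the spread between these libraries, which may be technical. In whole islets, fewer cells of a type and less RNA per cell cannot be told apart.

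Secretory granules fuse with the plasma membrane when a VAMP on the granule zips together with a syntaxin and a SNAP25-type protein on the plasma membrane. Before this, Rab GTPases and their effectors tether and dock the granule, and Unc13 and Rims proteins prime it. Synaptotagmins then couple calcium entry to fusion, and complexins bind the assembled SNARE complex. In beta cells this machinery releases insulin, and in mice Syt7 is known as a major calcium sensor of islet hormone release.

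Library totals ran from 22216420 to 26110989 counts in sequencing batch 1, which holds library 1 of each group, and from 35876350 to 50264695 counts in batch 2, which holds libraries 2 and 3. The insulin gene Ins2 had 82038 to 118054 CPM (counts scaled to library size) and the glucagon gene Gcg had 23852 to 38131 CPM, so the hormone genes that define islets were present. The 73 genes together took 0.593%, 0.644% and 0.620% of the counts in palmitate libraries 1, 2 and 3, against 0.647%, 0.676% and 0.685% in vehicle libraries. With C3a they took 0.594%, 0.623% and 0.619% in palmitate libraries, against 0.650%, 0.672% and 0.675% in vehicle libraries. The share was lower with palmitate in all 6 pairs of libraries with the same number. Genes with many counts weigh most in this share. Syt13, Cplx2 and Sytl4 had the most, at 541173, 231327 and 218323 counts over all 12 libraries, and each fell with palmitate (below). The share therefore does not show how many of the 73 genes fell.

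Levels were compared between genes as counts per kilobase of annotated transcript length, scaled to the sum of each library (TPM scale). In vehicle islets the highest of the 73 was Syt13, a synaptotagmin that does not bind calcium, at 513 ± 32.4 on the TPM scale (SD, n = 3). Syt7 followed at 291 ± 24.1, and Sytl4, the Rab27 effector granuphilin that docks insulin granules, at 249.6 ± 5.19. Then came Cplx2 at 180.5 ± 18.9 and Rab27a at 159 ± 14.6, whose libraries overlapped. Vamp2 at 143 ± 21.6 and Snap25 at 134 ± 9.11 were next and overlapped as well. Among the plasma membrane syntaxins, Stx4a had the highest level at 38.5 ± 1.29, while Stx1a, the syntaxin best known from insulin release, had 7.05 ± 0.699. The lowest level of all belonged to Unc13c at 0.0173 ± 0.00930. The filter on low counts kept 70 of the 73 genes, and Cplx4, Syt8 and Unc13c, with 18, 23 and 28 counts over all 12 libraries, were not tested.

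**Figure D1:**
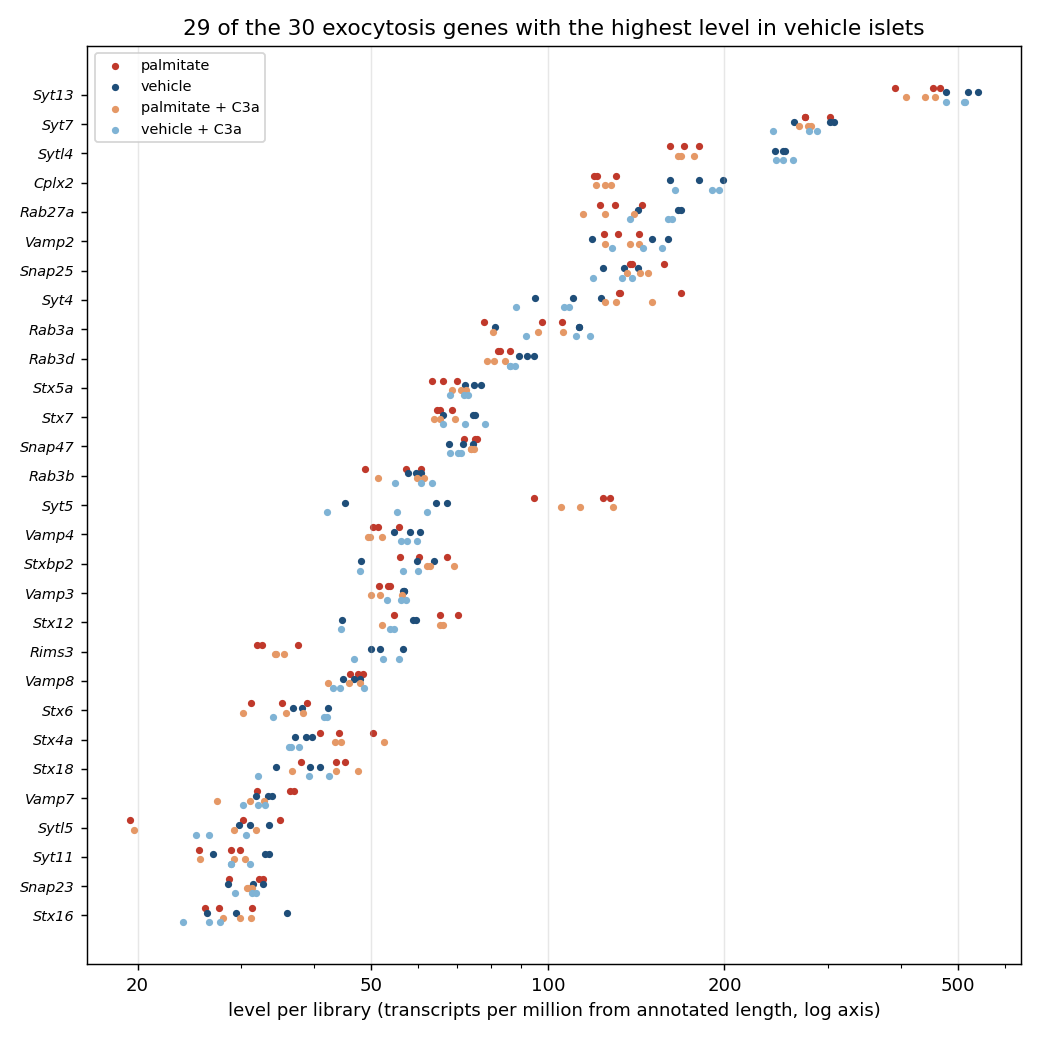
Level of 29 of the 30 exocytosis genes with the highest vehicle mean, on the TPM scale (log axis), with 1 point per library and a colour per group. Syt13, Syt7 and Sytl4 stand at the top, and the palmitate points of Syt5 lie to the right of the vehicle points while those of Sytl4, Cplx2 and Rims3 lie to the left.

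Palmitate changed this machinery in both directions, and it did so with and without C3a. Without C3a, Syt5, Sytl2, Syt4 and Stx3 were among the 13 of 70 genes that rose, and Rims3, Sytl4, Cplx2 and Syt9 were among the 14 that fell, while 43 did not pass the test (edgeR quasi-likelihood test, Benjamini-Hochberg adjusted p under 0.05 over all 15794 genes tested). Among all genes tested 13.4% rose and 12.0% fell in that comparison, 25.4% together, so the counts for the set lie near to somewhat above these shares and are not taken as particular to it. With C3a in both groups, 12 rose and 17 fell, against 13.8% and 13.1% of all genes, 26.9% together. Of the 13 genes that rose without C3a, 11 also rose with it, which is 84.6% of the first list and 91.7% of the second. Of the 14 that fell, 12 also fell with C3a, which is 85.7% of the first list and 70.6% of the second. Both comparisons come from the same fit, and the overlap was not counted over all genes tested, so it is not taken as particular to the set. The median log2 fold change of the 70 genes was -0.07 without C3a and -0.06 with it, against medians of -0.02 and 0.01 over all genes tested.

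Averaged over both C3a states, which uses 6 libraries a side, 16 genes rose and 22 fell, against 20.3% and 19.4% of all genes, 39.7% together. The median size of the log2 fold change was 0.20 for the 70 genes and 0.18 for all genes tested. Every gene that passed without C3a or with C3a moved in 1 direction in all 3 pairs of libraries with the same number. In batch 2 alone, every one of them kept its sign, and 11 of the 27 called without C3a and 18 of the 29 called with it passed again. When each of the 12 libraries was left out in turn, 14 of the 27 and 19 of the 29 passed in every fit. The genes were called from these same libraries, so the pairs, batch 2 and the fits with a library left out are not independent checks. Among the genes below that are given by their fold change alone, the calls of Stx12, Stx6, Stx7, Rab3a and Rab3d with C3a, of Stx18, Stx19, Syt11 and Syt12 without C3a and of Rims1 in both states were each lost in 2 to 6 of these 12 fits. Exon positions shared with another gene make the counts of Stx5a, Stx18, Syt7, Syt12, Syt16 and Rab3a uncertain too, besides those of the genes named with such a partner below.

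**Figure D2:**
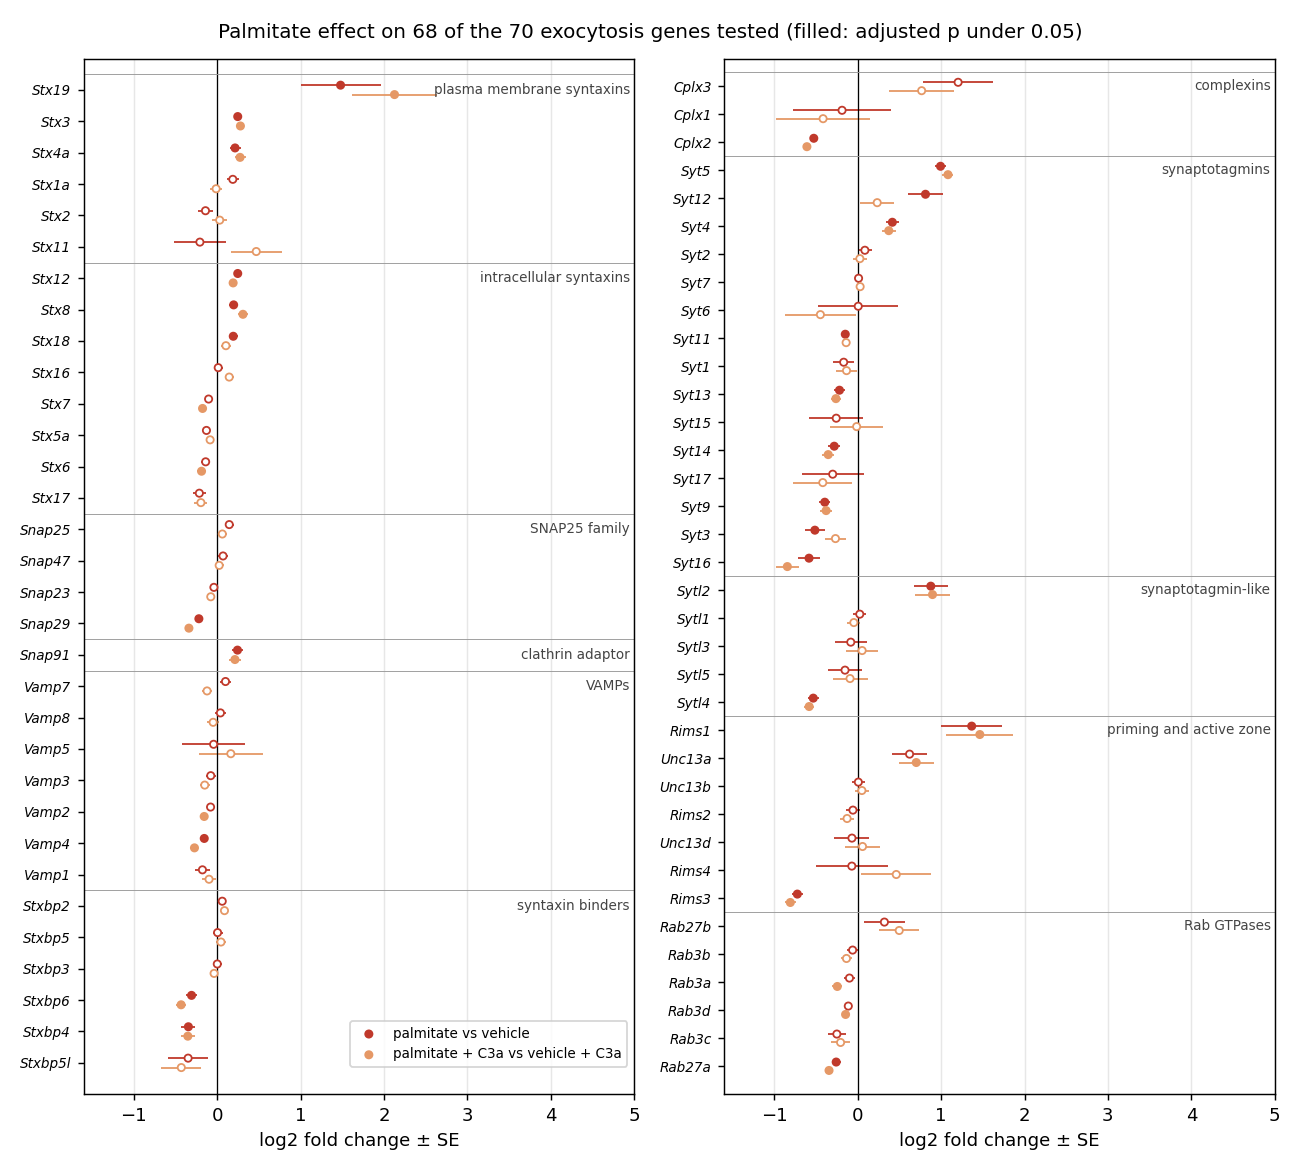
Log2 fold change ± SE of 68 of the 70 genes tested, grouped by role, for palmitate against vehicle and for palmitate + C3a against vehicle + C3a; filled points passed an adjusted p of 0.05. Among genes with at least 5 CPM Syt5 lies farthest to the right, at 0.99 and 1.08, and Rims3 farthest to the left, at -0.72 and -0.81.

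The promoters of 4 genes are shown, 2 that rose and 2 that fell with palmitate. All 4 genes passed the test of palmitate averaged over both C3a states and had at least 5 CPM. Each had a RefSeq window of the 250 bases before a start site within 100 bases of a GENCODE start. They are examples and not the most changed genes of the set, since Syt5, Sytl2 and Syt4 rose more than Stx3. The 4 genes were chosen after the values were seen. The windows (RefSeq, GRCm38.p6) are chr8:71671758-71672007 on the minus strand for Unc13a, chr19:11819404-11819653 on the minus strand for Stx3, chr4:120854549-120854798 on the plus strand for Rims3 and chrX:133981813-133982062 on the minus strand for Sytl4. Each is written 5′ to 3′ on the gene's strand, and capitals mark GC boxes, the letters GGGCGG on either strand. Unc13a and Stx3 rose, and Rims3 and Sytl4 fell.
Unc13a promoter: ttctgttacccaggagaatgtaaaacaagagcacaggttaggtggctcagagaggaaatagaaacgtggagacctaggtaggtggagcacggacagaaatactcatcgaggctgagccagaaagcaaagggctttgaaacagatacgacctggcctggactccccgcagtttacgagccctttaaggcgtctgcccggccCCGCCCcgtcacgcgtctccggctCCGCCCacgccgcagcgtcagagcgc
Stx3 promoter: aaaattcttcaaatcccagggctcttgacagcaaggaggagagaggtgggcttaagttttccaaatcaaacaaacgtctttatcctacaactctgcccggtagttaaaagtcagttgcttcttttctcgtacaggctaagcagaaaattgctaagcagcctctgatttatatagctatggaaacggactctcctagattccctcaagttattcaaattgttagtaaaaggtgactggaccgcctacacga
Rims3 promoter: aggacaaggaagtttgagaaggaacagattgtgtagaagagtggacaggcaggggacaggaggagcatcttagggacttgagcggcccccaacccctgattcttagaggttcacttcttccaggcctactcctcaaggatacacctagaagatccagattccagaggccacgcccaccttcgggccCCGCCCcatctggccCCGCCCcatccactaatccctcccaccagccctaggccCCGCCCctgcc
Sytl4 promoter: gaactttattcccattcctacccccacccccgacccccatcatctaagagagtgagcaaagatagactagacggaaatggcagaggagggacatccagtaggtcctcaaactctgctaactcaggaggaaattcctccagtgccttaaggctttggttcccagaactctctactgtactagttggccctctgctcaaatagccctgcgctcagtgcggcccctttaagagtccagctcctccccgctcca
The Unc13a window held 2 GC boxes and the Rims3 window 3, while those of Stx3 and Sytl4 held none. Of the 73 genes, 55 had a window. They were grouped by the same average over both C3a states. A GC box was found in 6 of the 10 that rose, 14 of the 20 that fell and 17 of the 23 that did not pass, against 61.0% of 11722 tested genes with a window. The E-box CACGTG, whose letters read the same on both strands, was found in 1 of the 10, 4 of the 20 and 3 of the 23, against 9.43%. No window of a gene that rose or fell held TGACGTCA (cAMP response element), TGATGNAA (C/EBP-ATF element) or TTCAGCACC (RE1 left part), searched on both strands, which 2.92%, 2.51% and 0.409% of tested genes held.

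Of the 7 plasma membrane syntaxins, which receive granules at the cell surface, 3 rose and none fell in each C3a state, against the 13.4% and 13.8% that rose and the 12.0% and 13.1% that fell of all genes tested. Stx3, which serves granules that fuse soon after arrival, had 59.5, 56.3 and 55.1 CPM with palmitate, against 47.5, 47.5 and 48.8 CPM with vehicle, and 57.4, 55.1 and 53.4 CPM with palmitate + C3a, against 44.0, 45.1 and 47.4 CPM with vehicle + C3a. All palmitate libraries lay above all vehicle libraries in both C3a states, and Stx3 rose by 0.25 ± 0.05 on the log2 scale without C3a and by 0.28 ± 0.05 with it (edgeR adjusted p = 0.00295 and 0.00131). Stx4a, a syntaxin of insulin granule fusion, had 41.0, 31.3 and 36.2 CPM with palmitate, against 31.5, 30.9 and 30.4 CPM with vehicle, and 39.8, 34.4 and 35.1 CPM with palmitate + C3a, against 32.3, 27.9 and 30.1 CPM with vehicle + C3a. Its groups overlapped without C3a and lay apart with it, and Stx4a rose by 0.22 ± 0.07 on the log2 scale without C3a and by 0.28 ± 0.07 with it (edgeR adjusted p = 0.0331 and 0.00961). The call without C3a was lost when palmitate library 1 or 3 or vehicle library 1 or 3 was left out, and in batch 2 alone the log2 fold change was 0.14 without C3a and 0.26 with it, neither past the threshold. With protein-coding transcripts alone neither call held. Exons of Stx4a share positions with those of another gene, so its counts are uncertain. Stx19 was the third and lay below 2 CPM in every library. Stx1a had 13.2, 9.74 and 9.37 CPM with palmitate, against 10.8, 8.28 and 9.08 CPM with vehicle, and 12.0, 9.48 and 9.28 CPM with palmitate + C3a, against 12.0, 9.79 and 9.24 CPM with vehicle + C3a, with overlapping groups, and its changes of 0.19 ± 0.07 without C3a and -0.01 ± 0.07 with it did not pass (adjusted p = 0.0849 and 0.933).

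Of the 8 syntaxins of inner membranes, 3 rose and none fell without C3a, and 2 rose and 2 fell with it. The shares that rose and fell over all genes tested were 13.4% and 12.0% without C3a, and 13.8% and 13.1% with it. Stx8, of late endosomes, had 23.6, 24.5 and 25.8 CPM with palmitate, against 22.1, 20.4 and 22.03 CPM with vehicle, and 24.7, 26.8 and 25.6 CPM with palmitate + C3a, against 20.7, 21.04 and 20.5 CPM with vehicle + C3a. Its palmitate libraries lay above its vehicle libraries in both states. Stx8 rose by 0.20 ± 0.06 on the log2 scale without C3a and by 0.31 ± 0.06 with it (edgeR adjusted p = 0.0233 and 0.00197); the first call was lost without palmitate library 3 or vehicle library 2. Stx12, of recycling endosomes, rose by 0.25 ± 0.05 and 0.19 ± 0.05, and Stx18, of the endoplasmic reticulum, by 0.19 ± 0.06 without C3a (edgeR adjusted p = 0.00376, 0.0141 and 0.0253). With C3a, Stx7 fell by 0.17 ± 0.04 and Stx6 by 0.19 ± 0.06 on the log2 scale (adjusted p = 0.0134 and 0.0295 in edgeR). Stx5a, of the Golgi, had the highest vehicle mean of these 8 on the TPM scale, at 74.7 ± 2.41, with libraries that overlapped those of Stx7 at 71.9 ± 4.98. Stx5a had 81.0, 76.0 and 75.6 CPM with palmitate, against 92.5, 82.3 and 79.6 CPM with vehicle, and 81.2, 75.1 and 80.5 CPM with palmitate + C3a, against 87.7, 82.8 and 80.7 CPM with vehicle + C3a. The groups overlapped, and its change of -0.13 ± 0.04 without C3a missed the threshold (adjusted p = 0.0523; 0.0458 with the replicate number as a block), as did -0.08 ± 0.04 with C3a (adjusted p = 0.193). Averaged over both states it fell by 0.11 ± 0.03 (edgeR adjusted p = 0.0173), a call lost without palmitate + C3a library 1 or vehicle library 1.

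The SNAP25 family includes the members that supply the remaining plasma membrane SNARE helices. Snap25, its neuroendocrine member, had 151, 184 and 172 CPM with palmitate, against 149, 158 and 150.3 CPM with vehicle, and 157, 168 and 156 CPM with palmitate + C3a, against 144, 159.8 and 157 CPM with vehicle + C3a. The groups overlapped in both states, and the changes of 0.15 ± 0.05 without C3a and 0.06 ± 0.05 with it did not pass (adjusted p = 0.0627 and 0.429; 0.0296 without C3a in the fit with a replicate block). Over both states Snap25 rose by 0.10 ± 0.04 (edgeR adjusted p = 0.0423), but with a library left out the call held only without palmitate library 1, vehicle library 1 or palmitate + C3a library 3. Snap29, a partner of Stx17 in autophagosome fusion, had 36.0, 35.2 and 36.6 CPM with palmitate, against 41.9, 40.6 and 42.9 CPM with vehicle, and 32.0, 33.95 and 32.4 CPM with palmitate + C3a, against 40.8, 41.8 and 41.8 CPM with vehicle + C3a. Its palmitate libraries all lay below its vehicle libraries. Snap29 fell by 0.22 ± 0.04 on the log2 scale without C3a and by 0.34 ± 0.04 with it (edgeR adjusted p = 0.00377 and 0.000218), and it shares exon positions with Pi4ka on the opposite strand. Snap23 and Snap47 did not pass in either state. Snap91 matches the symbol rule but encodes a clathrin adaptor, not a SNARE. It had 24.7, 26.2 and 22.8 CPM with palmitate, against 22.6, 18.8 and 20.9 CPM with vehicle, and 22.6, 23.0 and 22.4 CPM with palmitate + C3a, against 20.1, 18.7 and 19.9 CPM with vehicle + C3a, without overlap, and rose by 0.24 ± 0.07 and 0.21 ± 0.07 (edgeR adjusted p = 0.0252 and 0.0443). The call without C3a was lost without palmitate library 2 or vehicle library 2. The call with C3a held only when palmitate library 2 or 3 or vehicle library 1 or 2 was the one left out, and DESeq2 did not make it.

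Of the 7 VAMPs none rose in either state, while 1 fell without C3a and 2 fell with it. Over all genes tested 13.4% rose and 12.0% fell without C3a, and 13.8% and 13.1% with it. Vamp2, the synaptobrevin of insulin granules, had 173, 204 and 199 CPM with palmitate, against 179, 222 and 207 CPM with vehicle, and 166, 197 and 202 CPM with palmitate + C3a, against 194, 223 and 211 CPM with vehicle + C3a. Palmitate and vehicle libraries overlapped, although each palmitate library lay below the vehicle library of the same number. Its change was -0.08 ± 0.04 without C3a (adjusted p = 0.222), and it fell by 0.15 ± 0.04 with C3a (edgeR adjusted p = 0.0209), a call lost without palmitate + C3a library 1 or 2 or vehicle + C3a library 1 or 2. Vamp4, of the trans-Golgi network, fell by 0.15 ± 0.05 and 0.27 ± 0.05 (edgeR adjusted p = 0.0292 and 0.00125), and the first call was lost when any palmitate or vehicle library without C3a was left out. Vamp3, Vamp8, Vamp1 and Vamp5 did not pass in either state.

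Vamp7 is a VAMP of lysosomes and late endosomes whose gene lies on a scaffold of GRCm38 outside the assembled chromosomes. It had 61.5, 62.8 and 57.7 CPM with palmitate, against 61.1, 56.2 and 52.9 CPM with vehicle, and 53.3, 47.1 and 53.6 CPM with palmitate + C3a, against 58.3, 56.7 and 52.4 CPM with vehicle + C3a. The palmitate + C3a libraries lay below all palmitate libraries, while vehicle + C3a and vehicle overlapped. Its palmitate changes of 0.10 ± 0.06 without C3a and -0.12 ± 0.06 with it did not pass (adjusted p = 0.258 and 0.173).

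The syntaxin-binding proteins hold syntaxins open or shut. Stxbp6 (amisyn), which competes with VAMPs for syntaxin, had 25.96, 32.7 and 32.5 CPM with palmitate, against 34.5, 38.6 and 39.7 CPM with vehicle, and 27.5, 27.5 and 29.8 CPM with palmitate + C3a, against 37.1, 39.1 and 38.3 CPM with vehicle + C3a. Here all palmitate libraries lay below all vehicle libraries, and Stxbp6 fell by 0.31 ± 0.06 on the log2 scale without C3a and by 0.43 ± 0.06 with it (edgeR adjusted p = 0.00371 and 0.000404). Stxbp4 (Synip), a binder of Stx4, had 16.8, 16.2 and 13.2 CPM with palmitate, against 20.3, 17.8 and 20.3 CPM with vehicle, and 15.6, 13.7 and 15.5 CPM with palmitate + C3a, against 20.4, 18.4 and 18.4 CPM with vehicle + C3a. The groups did not overlap. Stxbp4 fell by 0.34 ± 0.08 on the log2 scale without C3a and by 0.35 ± 0.08 with it (edgeR adjusted p = 0.011 and 0.00948), and the first call was lost without vehicle library 3. Stxbp2, Stxbp3, Stxbp5 and Stxbp5l did not pass in either state.

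Cplx2 (ENSMUSG00000025867.8, GRCm38 chromosome 13, 54371349 to 54383917, plus strand), the complexin with the highest level here, had 393, 438 and 422 CPM with palmitate, against 567, 592 and 645 CPM with vehicle, and 381, 420.3 and 431 CPM with palmitate + C3a, against 582, 654 and 643 CPM with vehicle + C3a. No palmitate library reached the lowest vehicle library. Cplx2 fell by 0.53 ± 0.04 on the log2 scale without C3a and by 0.61 ± 0.04 with it (edgeR adjusted p = 1.23e-05 and 4.66e-06); in batch 2 alone the changes were -0.52 and -0.61. Cplx1 and Cplx3 did not pass in either state, and Cplx3 rose in the average, at under 1 CPM in every library.

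Synaptotagmins were the largest group, with 15 of 16 tested. Without C3a 3 rose and 6 fell, against 13.4% and 12.0% of all genes tested. With C3a 2 rose and 4 fell, against 13.8% and 13.1%. Syt5 (ENSMUSG00000004961.7, GRCm38 chromosome 7, 4539765 to 4547541, minus strand), a calcium-binding synaptotagmin of dense-core vesicles, had 109, 152 and 155 CPM with palmitate, against 56.2, 78.1 and 74.2 CPM with vehicle, and 118, 154 and 135 CPM with palmitate + C3a, against 52.7, 65.7 and 74.6 CPM with vehicle + C3a. The palmitate libraries were all well above the vehicle libraries. Syt5 rose by 0.99 ± 0.07 on the log2 scale without C3a and by 1.08 ± 0.07 with it (edgeR adjusted p = 5.18e-06 and 2.03e-06), and batch 2 alone gave 1.02 and 1.04.

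Syt4, an atypical synaptotagmin known to lower the calcium sensitivity of insulin release in mature mouse beta cells, had 339.8, 446 and 367 CPM with palmitate, against 263, 318 and 282 CPM with vehicle, and 326, 398 and 332 CPM with palmitate + C3a, against 246, 286 and 284 CPM with vehicle + C3a. Library 2 was the highest of every group, and palmitate and vehicle did not overlap. Syt4 rose by 0.42 ± 0.08 on the log2 scale without C3a and by 0.37 ± 0.08 with it (edgeR adjusted p = 0.00326 and 0.00569), and it shares exon positions with Gm26658 on the opposite strand. Syt7 had 351, 424 and 390.2 CPM with palmitate, against 347, 397 and 413 CPM with vehicle, and 357, 396 and 389 CPM with palmitate + C3a, against 335, 397 and 388 CPM with vehicle + C3a, with full overlap of the groups. Its changes were 0.01 ± 0.04 and 0.03 ± 0.04, neither past the threshold (adjusted p = 0.896 and 0.677).

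The synaptotagmins that fell included both high and low genes. Syt13 had 968, 1193 and 1216 CPM with palmitate, against 1279, 1298 and 1336 CPM with vehicle, and 984, 1169 and 1125 CPM with palmitate + C3a, against 1287, 1313 and 1317 CPM with vehicle + C3a. The groups lay apart, with library 1 lowest in each. Syt13 fell by 0.22 ± 0.06 on the log2 scale without C3a and by 0.26 ± 0.06 with it (edgeR adjusted p = 0.0201 and 0.00771). The calls were lost without palmitate library 1 or vehicle library 1 or 3, and without vehicle + C3a library 1, and batch 2 alone gave -0.12 and -0.20. Syt9, a calcium sensor of insulin granules in rodent beta cell lines, had 17.2, 17.9 and 17.9 CPM with palmitate, against 21.3, 22.4 and 26.03 CPM with vehicle, and 17.8, 18.8 and 18.7 CPM with palmitate + C3a, against 21.3, 25.9 and 24.7 CPM with vehicle + C3a. Its palmitate libraries were close together and below every vehicle library. Syt9 fell by 0.39 ± 0.07 on the log2 scale without C3a and by 0.38 ± 0.07 with it (edgeR adjusted p = 0.00143 and 0.00169). Syt14, which lacks calcium-binding residues, had 92.8, 103 and 90.3 CPM with palmitate, against 114, 114 and 119 CPM with vehicle, and 92.4, 96.1 and 80.3 CPM with palmitate + C3a, against 113, 119.9 and 110.3 CPM with vehicle + C3a, again without overlap. Syt14 fell by 0.28 ± 0.07 on the log2 scale without C3a and by 0.35 ± 0.07 with it (edgeR adjusted p = 0.0123 and 0.0033), and the first call was lost without palmitate library 1 or 3 or vehicle library 3.

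Syt3, a calcium-binding member, had 10.0, 7.77 and 10.98 CPM with palmitate, against 14.6, 12.1 and 14.5 CPM with vehicle, and 10.0, 9.91 and 10.9 CPM with palmitate + C3a, against 13.7, 11.3 and 12.4 CPM with vehicle + C3a. The groups did not overlap in either state. It fell by 0.51 ± 0.12 without C3a (edgeR adjusted p = 0.00997, lost without vehicle library 3), while its change of -0.27 ± 0.12 with C3a missed the threshold (adjusted p = 0.14; 0.0372 with the replicate block). The difference between these changes was not past the threshold (interaction adjusted p = 1.00). All counts of Syt16 fell on Syt16-201, a transcript annotated as a target of nonsense-mediated decay. Syt16, at under 6 CPM, fell by 0.58 ± 0.14 and 0.84 ± 0.14, and Syt11 fell by 0.15 ± 0.05 without C3a (edgeR adjusted p = 0.00883, 0.00099 and 0.0405). Syt12, at under 3 CPM, rose by 0.81 ± 0.21 without C3a and had 0.23 ± 0.20 with it (edgeR adjusted p = 0.0133 and 0.452). Syt1, Syt2, Syt6, Syt15 and Syt17 did not pass in either state.

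Docking of insulin granules rests on Rab27a and its effector granuphilin, the product of Sytl4, which in mice also holds back fusion of the granules it docks. Sytl4 (ENSMUSG00000031255.14, GRCm38 chromosome X, 133936385 to 133981812, minus strand), whose promoter is printed above, had 376, 419 and 403 CPM with palmitate, against 599, 563 and 569 CPM with vehicle, and 360.4, 397 and 426 CPM with palmitate + C3a, against 617, 576 and 577 CPM with vehicle + C3a. The highest palmitate library was far below the lowest vehicle library in both states. Sytl4 fell by 0.53 ± 0.06 on the log2 scale without C3a and by 0.58 ± 0.06 with it (edgeR adjusted p = 0.000143 and 6.8e-05), and batch 2 alone gave -0.46 and -0.49. Rab27a had 238, 293 and 277 CPM with palmitate, against 302, 329.9 and 331 CPM with vehicle, and 216, 282 and 255 CPM with palmitate + C3a, against 295, 330.2 and 328 CPM with vehicle + C3a. Library 1 was the lowest of each group, and palmitate and vehicle did not overlap. Rab27a fell by 0.26 ± 0.05 on the log2 scale without C3a and by 0.34 ± 0.05 with it (edgeR adjusted p = 0.004 and 0.000642), and it shares exon positions with Gm27186 on the same strand, so its counts are uncertain. Sytl2, another Rab27 effector, had 8.18, 6.83 and 5.01 CPM with palmitate, against 3.39, 3.47 and 3.74 CPM with vehicle, and 7.90, 5.80 and 4.34 CPM with palmitate + C3a, against 3.75, 2.32 and 3.47 CPM with vehicle + C3a, so it was a low-level gene, and its palmitate libraries lay above its vehicle libraries. Sytl2 rose by 0.88 ± 0.20 on the log2 scale without C3a and by 0.90 ± 0.20 with it (edgeR adjusted p = 0.00797 and 0.00706). Sytl1, Sytl3 and Sytl5 did not pass. Of the Rab3 GTPases, which sit on granules, none passed without C3a, and with C3a Rab3a fell by 0.24 ± 0.06 and Rab3d by 0.15 ± 0.04 (edgeR adjusted p = 0.0126 and 0.0206). Over both states Rab3a, Rab3c and Rab3d fell by 0.17 ± 0.04, 0.23 ± 0.08 and 0.13 ± 0.03 on the log2 scale.

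**Figure D3:**
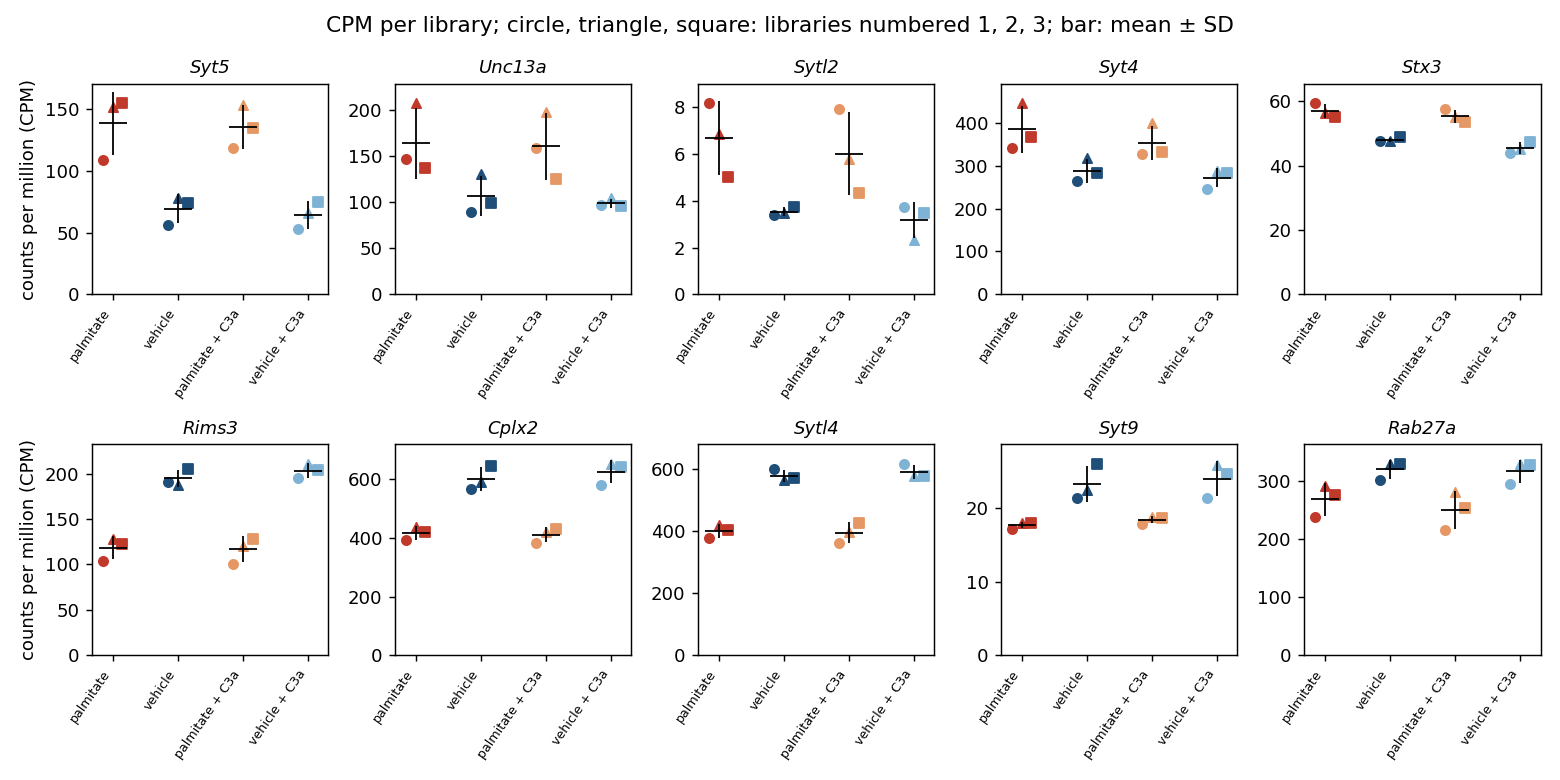
CPM per library of 10 exocytosis genes in the 4 groups, with the mean ± SD; marker shape gives the library number. In the upper row palmitate libraries lie above vehicle libraries (Syt5, Unc13a, Sytl2, Syt4, Stx3), and in the lower row they lie below (Rims3, Cplx2, Sytl4, Syt9, Rab27a).

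Priming and active zone genes moved both ways. Rims3 (ENSMUSG00000032890.17, GRCm38 chromosome 4, 120854816 to 120896579, plus strand), a short Rims protein without the Rab3-binding domain, had 104, 128 and 123 CPM with palmitate, against 191, 188 and 205 CPM with vehicle, and 101, 121 and 128 CPM with palmitate + C3a, against 195, 211 and 204 CPM with vehicle + C3a. Palmitate libraries lay far below vehicle libraries in each pair. Rims3 fell by 0.72 ± 0.06 on the log2 scale without C3a and by 0.81 ± 0.06 with it (edgeR adjusted p = 1.97e-05 and 8.81e-06), and batch 2 alone gave -0.64 and -0.74. Unc13a (ENSMUSG00000034799.16, GRCm38 chromosome 8, 71624417 to 71671757, minus strand), a priming factor of insulin granules, had 147, 208 and 138 CPM with palmitate, against 89.7, 131 and 99.7 CPM with vehicle, and 159.6, 198 and 125 CPM with palmitate + C3a, against 96.9, 104 and 95.6 CPM with vehicle + C3a. Library 2 was the highest of each group, and palmitate and vehicle did not overlap in either state. Its change of 0.62 ± 0.21 without C3a missed the threshold (adjusted p = 0.063; 0.00301 with the replicate block), and it rose by 0.70 ± 0.21 with C3a (edgeR adjusted p = 0.0392), a call that held in 4 of 12 fits with a library left out, those without palmitate library 2 or 3, vehicle library 2 or palmitate + C3a library 3. Over both states Unc13a rose by 0.66 ± 0.15 (edgeR adjusted p = 0.00735), a call kept in all 12 such fits but not in batch 2 alone, where the change was 0.64. It shares exon positions with Colgalt1 on the opposite strand. Rims1, at under 3 CPM, rose by 1.37 ± 0.37 and 1.46 ± 0.40 (edgeR adjusted p = 0.0177 and 0.0182). Rims2, the active zone scaffold best known from islets, did not pass, nor did Rims4, Unc13b or Unc13d.

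C3a changed none of these genes past the threshold. The count was 0 of 70 for C3a within palmitate, within vehicle and on average over both, and 0 for the interaction of palmitate and C3a, in edgeR and in DESeq2. Among all genes tested edgeR called 0%, 0%, 0.00633% and 0%. At an unadjusted p under 0.05 there were 2, 2, 5 and 1 of the 70. Over all 15794 genes tested there were 430, 347, 555 and 251 at that threshold. Among the 54 genes with at least 5 CPM, C3a changes ran from -0.24 to 0.15 on the log2 scale within palmitate and from -0.18 to 0.14 within vehicle, against palmitate changes from -0.72 to 0.99 without C3a. Vamp7 stood at the low end within palmitate, at -0.24 ± 0.06 (unadjusted p = 0.00183 and adjusted p = 1.00 in edgeR, lower in 3 of 3 pairs), while its C3a change within vehicle was -0.02 ± 0.06. The interaction for Vamp7 was -0.22 ± 0.09 (unadjusted p = 0.0242 and adjusted p = 1.00 in edgeR). Snap29 was next within palmitate by p, at -0.13 ± 0.04 (adjusted p = 1.00 in edgeR).

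**Figure D4:**
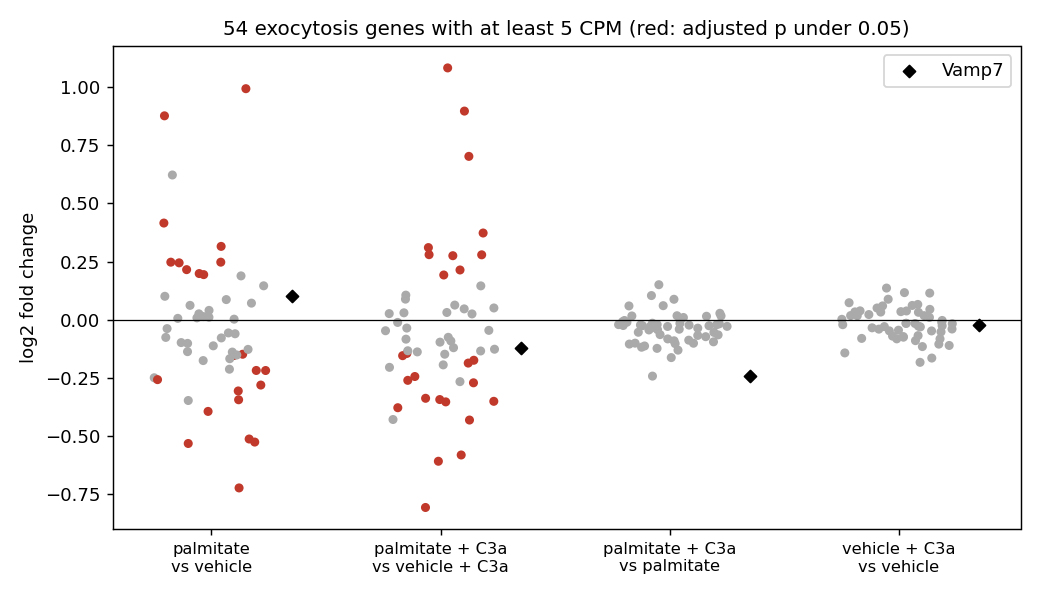
Log2 fold changes of the 54 exocytosis genes with at least 5 CPM in 4 comparisons; red points passed an adjusted p of 0.05 and the diamond marks Vamp7. Palmitate changes spread from -0.72 to 0.99 and from -0.81 to 1.08, and C3a changes from -0.24 to 0.15 and from -0.18 to 0.14, with no red points among the C3a changes.

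The deposited table lists transcripts, so the share of each transcript in its gene was tested as well, with palmitate averaged over both C3a states. Of 50 genes of the set with at least 2 transcripts kept, 6 had an unadjusted p under 0.05, a count not made over all genes. Of the 50, 1 passed an adjusted p of 0.05, against 0.454% of 8596 genes. That gene was Stxbp2, the binder of Stx3 (edgeR with a Simes p per gene, adjusted p = 0.0317). Of the counts of the gene, transcript Stxbp2-207 made up 34.2, 27.9 and 30.6% with palmitate, against 44.0, 40.5 and 38.8% with vehicle, and 38.3, 31.3 and 31.1% with palmitate + C3a, against 47.7, 36.5 and 40.3% with vehicle + C3a. Its share was lower with palmitate in each pair of libraries with the same number, and the groups overlapped with C3a only. The call was lost in the fit with a replicate block, in batch 2 alone, and in 11 of the 12 fits with a library left out, all but that without vehicle + C3a library 2.

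The transcripts of Rims3 split by sequencing batch. Of the counts of the gene, transcript Rims3-202 made up 35.5, 3.75 and 0.835% with palmitate, against 61.9, 4.63 and 0.581% with vehicle, and 44.4, 2.05 and 0% with palmitate + C3a, against 60.6, 1.06 and 1.26% with vehicle + C3a. It was high in the 4 libraries of batch 1 and at or below 4.63% in the 8 of batch 2, and within batch 1 it was lower in the 2 palmitate libraries than in the 2 vehicle libraries. Rims3 did not pass the share test (adjusted p = 0.378). How the quantifier divided reads between Rims3-201 and Rims3-202, of 6505 and 6437 bases, is not in the table.

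**Figure D5:**
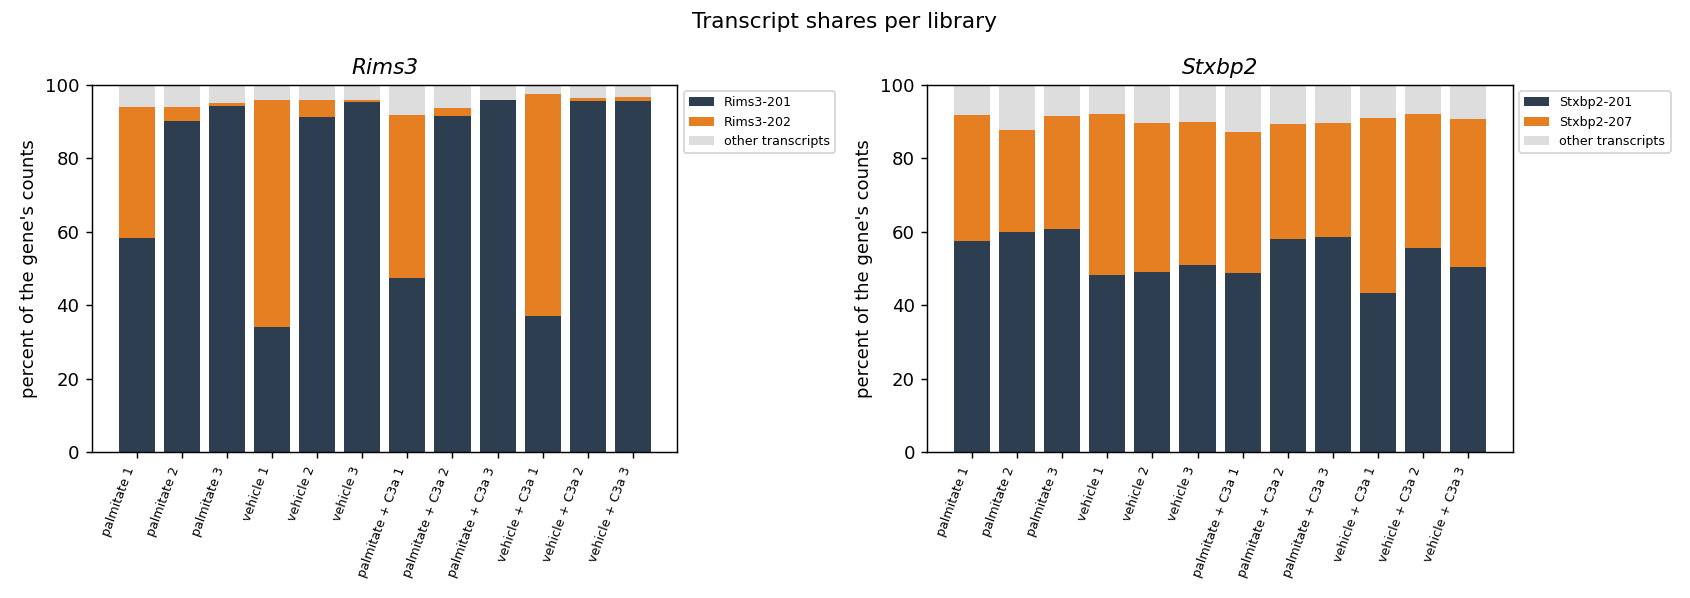
Share of a gene's counts taken by its 2 main transcripts in each library, for Rims3 and Stxbp2. Rims3-202 is large in library 1 of every group only, and Stxbp2-207 is smaller in each palmitate library than in the vehicle library of the same number.

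Related genes outside the symbol rule were counted in 3 lists, averaged over both C3a states. In this average 20.3% of all genes tested rose and 19.4% fell. The median log2 fold change was -0.12, 0.04 and -0.21 for partners of release, exocyst and calcium channels, against -0.0014 over all genes tested. Of 34 partners of release (SNARE recycling, CAPS, Rab effectors, active zone and granule proteins), 7 rose and 8 fell. Cadps, which primes dense-core granules, had 130.1, 163 and 146 CPM with palmitate, against 201, 212 and 212 CPM with vehicle, and 132, 149 and 144 CPM with palmitate + C3a, against 204, 223 and 215 CPM with vehicle + C3a, with every palmitate library below every vehicle library, and fell by 0.55 ± 0.04 on the log2 scale (adjusted p = 5.84e-07 in edgeR). Sv2b and Sv2a, related vesicle proteins, moved in opposite directions: Sv2b fell by 0.73 ± 0.06 and Sv2a rose by 0.27 ± 0.03 (edgeR adjusted p = 3e-06 and 3.01e-05). Rimbp2, which links Rims proteins to calcium channels, fell by 0.45 ± 0.05 (edgeR adjusted p = 2.81e-05). Of 9 exocyst subunits, which tether vesicles, Exoc6 and Exoc1 rose by 0.24 ± 0.05 and 0.20 ± 0.04 and Exoc4 fell by 0.20 ± 0.04, while Exoc3 at 0.07 did not pass. Of 14 voltage-gated calcium channel subunits 1 rose and 4 fell, and the fall was 0.36 ± 0.06 for Cacna2d1, 0.32 ± 0.09 for Cacna1b, 0.22 ± 0.04 for Cacnb3 and 0.18 ± 0.06 for Cacnb2 on the log2 scale.

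Markers of cell types moved with palmitate too. The counts below are of averages over both C3a states, in which 20.3% of all genes tested rose and 19.4% fell. Of 10 beta cell markers 6 fell and 1 rose, with Slc30a8, Slc2a2 and Pdx1 falling by 0.78 ± 0.05, 0.92 ± 0.08 and 0.52 ± 0.04 and G6pc2 rising by 0.21 ± 0.07. The summed level of the 10 ran from 144514 to 176461 CPM with palmitate, against 159878 to 185079 CPM with vehicle, and 134577 to 165539 CPM with palmitate + C3a, against 171848 to 192748 CPM with vehicle + C3a, and its groups overlapped without C3a only. Of 6 endothelial markers 5 fell, and their sum ran from 95.6 to 163 CPM with palmitate, against 173 to 226 CPM with vehicle, and 101 to 165 CPM with palmitate + C3a, against 159 to 208 CPM with vehicle + C3a, and its groups overlapped with C3a only. Of 5 alpha cell markers 2 fell, of 3 delta cell markers none passed, of 2 PP cell markers 1 rose, and none of 7 acinar or 4 duct markers passed. Of 6 fibroblast and pericyte markers 2 fell, and their sum ran from 199.9 to 756 CPM with palmitate, against 338 to 668 CPM with vehicle, and 183 to 1392 CPM with palmitate + C3a, against 408 to 476 CPM with vehicle + C3a, with overlapping groups. Their median log2 fold change was -0.37 without C3a and 0.41 with it. Col3a1 of that list stood at 312 CPM in palmitate library 1 and 698 CPM in palmitate + C3a library 3, against 55.6 to 66.0 CPM in the other palmitate and palmitate + C3a libraries. Of 6 macrophage markers 1 rose and 1 fell, and their sum ran from 214 to 289.8 CPM with palmitate, against 248 to 332 CPM with vehicle, and 210.1 to 405 CPM with palmitate + C3a, against 273 to 298 CPM with vehicle + C3a. Of 6 Schwann cell and neuron markers tested, out of 7, 1 rose and 4 fell, with Chat at or below 0.331 CPM. The sum of the last list ran from 105 to 117 CPM with palmitate, against 98.8 to 119 CPM with vehicle, and 99.98 to 119.8 CPM with palmitate + C3a, against 107 to 134 CPM with vehicle + C3a. The part of cell composition in the changes of the exocytosis genes was not tested.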

How the data were processed

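Messenger RNA of 12 islet libraries was sequenced with a strand-marking kit, per the labels' protocols. The authors deposited estimated counts per transcript, in whole numbers without normalization. The submitters' processing notes name kallisto, DESeq2 and the build GRCm38, with neither roles nor versions. The transcriptome release and strand setting were not given in the sources used here. Genes that overlap thus have uncertain counts, and exons of 16 of the 73 genes share positions with another gene. Identifiers of 69942 of 71524 transcripts were found in GENCODE M21, which gave sums for 22141 genes. The 1582 others held 0.581% to 0.677% of a library's counts and were left out.

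The filter filterByExpr left 15794 genes. TMM factors lay between 0.967 and 1.045. The robust quasi-likelihood test of edgeR 4.0.16 (R 4.3.3) was fitted to all 12 libraries at once, with terms for group and sequencing batch, 7 residual degrees of freedom and a biological coefficient of variation of 11.2%. Tests were two-sided, with Benjamini-Hochberg adjustment over all genes of a comparison and a threshold of 0.05. The SE is the size of the log2 fold change over the root of F. CPM are scaled by TMM. Transcript shares were tested by edgeR on transcript counts with the gene's count as offset and a Simes p per gene, since diffSpliceDGE, planned first, gave mostly false calls on simulated data. The gene fit was tested on simulated data too. Alternatives were DESeq2 1.42.0, its size factors, no filter, no batch term, batch 2 alone, protein-coding transcripts alone, a replicate block and each library left out.

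Libraries numbered 1 all belong to batch 1 per the labels, those numbered 2 share a date per the file headers, as do those numbered 3. On these grounds the libraries were paired by number. Libraries with the same number deviated together (correlation of 0.395 or more in all 18 pairs across groups, mean 0.575). This correlation cannot tell the number from the batch, because the deviations include the batch difference and pairs with different numbers were not compared. None of 66 pairs of libraries were duplicates (lowest chi-squared per degree of freedom 7.35). Values are given in full for genes called with palmitate in either C3a state that had at least 5 CPM and a log2 fold change of at least 0.3 in size, for the gene with the highest level of each role, and for Sytl4 and Vamp7. Values of 2 genes of the set are not reported here. Stx3, Stx1a and Syt7 were added after their values were seen. Of the related lists, the 4 genes with the smallest p were named. The genes and lists were chosen with earlier results of these data known.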

Additional observations from a re-analysis of the deposited data

How the results depend on the processing

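With DESeq2, its size factors, no filter on low counts, protein-coding transcripts alone or the replicate block, every count of exocytosis genes that rose or fell with palmitate stayed within 1.5 times the main count, and the C3a and interaction counts stayed at 0 in every alternative. Without the batch term, 6 rose and 7 fell without C3a, and 10 fell with C3a. In batch 2 alone, with 2 libraries a group, 6 rose and 5 fell without C3a, and 7 rose and 11 fell with C3a; fewer libraries entered these fits. With each library left out in turn, 9 to 15 rose and 8 to 15 fell without C3a, 8 to 13 rose and 11 to 18 fell with C3a, and 15 to 17 rose and 21 to 24 fell on average; the lowest counts of falls came without vehicle library 3 (8) and without vehicle + C3a library 1 (11). The replicate block gave 15 that rose and 15 that fell without C3a, and 13 and 19 with it, and besides the genes named with their blocked p it changed no call of a gene given in full. The shares of all genes called in these alternative fits are not given here, so these counts are not taken as particular to the set. The count of genes with a changed transcript share was 0 with diffSpliceDGE, which was chosen as the alternative after the data were seen, 0 with the replicate block, 0 in batch 2 alone and 0 to 1 with a library left out. For the genes given in full, called or not, 1387 values under these alternatives kept direction and side of the threshold, 95 lost a call and 13 gained one; the gains were those of Syt3 with C3a and of Unc13a, Stx5a and Snap25 without C3a. Another 6 values changed sign, all of changes near 0 that passed in no fit: Stx1a with C3a was 0.028 with protein-coding transcripts alone and -0.030 to 0.018 with a library left out (above 0 without vehicle + C3a library 2), Syt7 without C3a was -0.024 to 0.041 with a library left out (below 0 without palmitate library 2 or, at -0.00061, vehicle library 2), and Syt7 with C3a was -0.0026 in batch 2 alone and -0.0016 to 0.048 with a library left out (below 0 without palmitate + C3a library 1). The average change of Vamp7, near 0, was not counted. Protein-coding transcripts alone ended the calls of Stx4a in both states, of Stx8 without C3a, of Syt11 without C3a, of Snap91 with C3a and of Stx5a and Rab3c on average, and left no value for Syt16; dropping the filter ended those of Vamp4 and Syt11 without C3a, of Unc13a and Snap91 with C3a and of Snap25 on average; the cause was not tested. At this depth Cplx3, for one, had 5 to 21 counts a library and passed in the average only. How large a change must be to pass at such counts was not tested. A missed threshold in genes that low is therefore not taken as no change.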
